A study of Saccharomyces cerevisiae with 4 samples.

Results

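The genes described here encode the tricarboxylic acid (TCA) cycle, the respiratory chain and the ATP synthase of budding yeast, Saccharomyces cerevisiae. They were taken by open reading frame (ORF) name, from a list chosen with earlier results of these data known. All 45 were found among the 6678 ORFs of the deposited table. The TCA cycle supplied 14 genes, complex III 9, cytochrome oxidase (the COX genes, complex IV) 9, the ATP synthase 11 and cytochrome c 2. Total RNA was sequenced from 4 libraries, 1 for each combination of genotype and condition. Wild type was SEY6210, a MATα strain with GAL that carries the leucine alleles leu2-3 and leu2-112 (written as 1 name in the labels), the uracil marker ura3-52, the histidine marker his3-∆200, the tryptophan marker trp1-∆901 and the lysine marker lys2-801, and suc2-∆9 at the invertase gene. The deletion strain, JMY047, is SEY6210 with pho23∆::HIS5, so both genotypes share the other alleles. Only the deletion strain carries the HIS5 marker, so an effect of the marker cannot be told apart from the loss of PHO23. Growing cells were in mid-log phase in rich medium (YPD), and starved cells had spent 2 h in SD-N, a medium without nitrogen. Other differences between the media cannot be told apart from the loss of nitrogen. The Pho23 protein belongs to the histone deacetylase Rpd3L. The PHO23 transcript, as RPKM (reads normalised to ORF length and to library depth), was listed at 12.3 and 23.4 in the wild-type libraries, growing and starved, and at 0.13 and 0.0546 in those of the deletion. Levels below are RPKM and follow this order, the growing value of a genotype before its starved value.

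The TCA cycle oxidises acetyl groups in the mitochondrial matrix and passes electrons to carriers. Succinate dehydrogenase, which belongs both to the cycle and to the chain as complex II, hands electrons to ubiquinone. Complex III passes them to cytochrome c and complex IV to oxygen, and the proton gradient so built drives the ATP synthase. Budding yeast has no proton-pumping complex I. Growing on glucose, it keeps many of these genes at a reduced level and relies on fermentation. The Hap2/3/4/5 complex, which binds the sequence CCAAT, is the best known activator of respiratory genes.

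All 45 genes were above an RPKM of 10 in every library. At a rough estimate of 20000000 to 27000000 reads per library, the least covered of the 45 held 598 to 1023 reads, which corresponds to a counting error of 3.13% to 4.09%. That error does not include the spread between cultures, which 1 library per group cannot give, so no difference below has a replicate check. In bulk RNA, fewer cells with a transcript and less of it per cell cannot be told apart. A fold is log2 of the ratio of (RPKM + 1), and 2-fold is the size from which a gene was called higher or lower, with 1.5-fold as a second limit. The 7 subunits encoded in the mitochondrial genome (COB, COX1, COX2, COX3, ATP6, ATP8 and OLI1) were at most at an RPKM of 1.11 in these libraries, so the nuclear subunits alone are described. Whether such low values reflect transcript levels, or how RNA was selected and reads were mapped, was not tested.

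Together the 45 genes held 0.905% of the summed RPKM growing and 1.795% starved in wild type, and 0.973% and 1.38% in the deletion. The share was therefore highest in starved wild type and lowest in growing wild type. It was higher in the starved library of each genotype, and the starved deletion lay between its growing counterpart and starved wild type. Most ORFs also held a larger share after starvation. With every library scaled to the same summed RPKM, the median starvation log2 fold of all ORFs was 0.85 in wild type and 0.51 in the deletion. Medians of the 45 genes were then 1.07 and 0.51, so a higher share was not particular to them. Levels ordered the complexes in growing wild type, where the median RPKM was 93.0 for the TCA cycle, 223 for complex III, 247 for the COX genes and 272 for the ATP synthase. Coding lengths differed too, from 546 bases (SDH4) to 3045 (KGD1) in the TCA cycle and from 180 to 468 in the COX genes. The ORF lengths used by the authors are not known, so levels of short and long genes compare only roughly. The members of a complex were unequal, and most so in the TCA cycle. There the highest gene stood 11.3-fold above the lowest in growing wild type, against 3.43-fold in complex III, 3.32-fold in the COX genes and 2.88-fold in the ATP synthase.

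**Figure D1:**
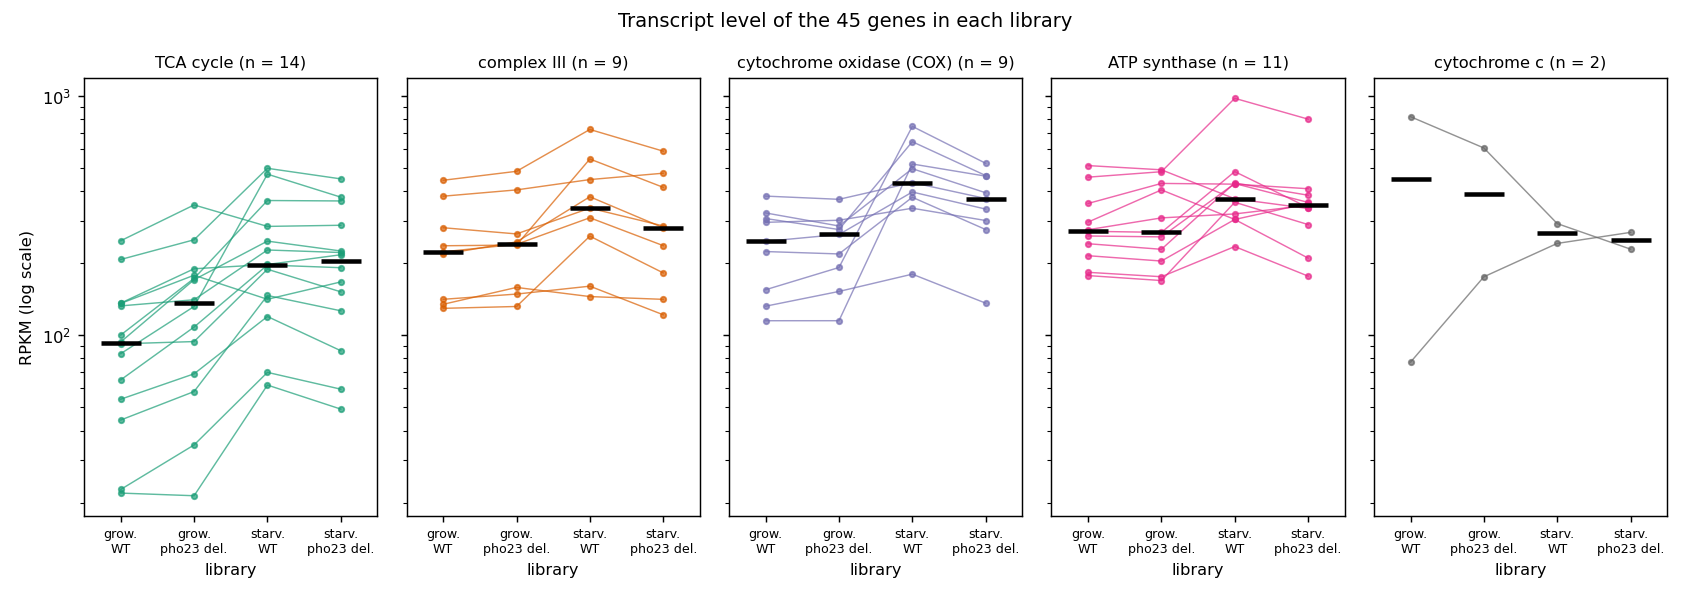
Level of each gene as RPKM (log axis) in the 4 libraries, 1 panel for each complex; each line joins the values of 1 gene and black bars are medians. The TCA panel starts lowest, at a median of 93.0 in growing wild type, and CYC1 and CYC7 converge after starvation.

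The clearest pattern among the complexes was a set of TCA cycle genes that stood far higher after starvation in wild type. Of the 14 TCA genes, 10 were at least 2-fold higher in starved than in growing wild type, or 71.4%, where 32.7% of all ORFs at the RPKM minimum of 10 were. Their median log2 fold was 1.33, against 0.53 over all those ORFs. The other complexes lay close to that background, with medians of 0.47 for complex III, 0.50 for the ATP synthase and 0.68 for the COX genes. In complex III 1 of 9 genes was 2-fold higher, in the COX group 3 of 9 and in the ATP synthase 2 of 11. Because most ORFs had a higher RPKM after starvation, scaling mattered here. With median-of-ratios scaling, which moved the median of all ORFs by -0.51, the TCA median was 0.80, while complex III and the ATP synthase turned to -0.06 and -0.03. Set against the median of all ORFs as deposited, 12 of 14 TCA genes, 4 of 9 complex III genes, 6 of 9 COX genes and 5 of 11 ATP synthase genes lay above it. The TCA count was 11 or 12 under the other scalings and pseudocounts, and IDH1, at 0.53, lay almost on the median. Over all 45 genes, 17 were 2-fold higher and 1, CYC1, was 2-fold lower, where 13.3% of all ORFs were 2-fold lower. At 1.5-fold 27 were higher and 1 lower, where 48.2% and 19% of all ORFs were, and 43 had a fold above 0, where 68.1% did. With median-of-ratios scaling the 2-fold split of the 45 was 8 and 1, so fewer than 10 TCA genes then reached 2-fold. All ORFs moved from 1950 higher and 795 lower to 1129 and 1254, or 19.1% higher. Among ORFs whose mean RPKM lay inside the range of the 45 genes, 30% were 2-fold higher as deposited, close to the 32.7% of all ORFs.

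**Figure D2:**
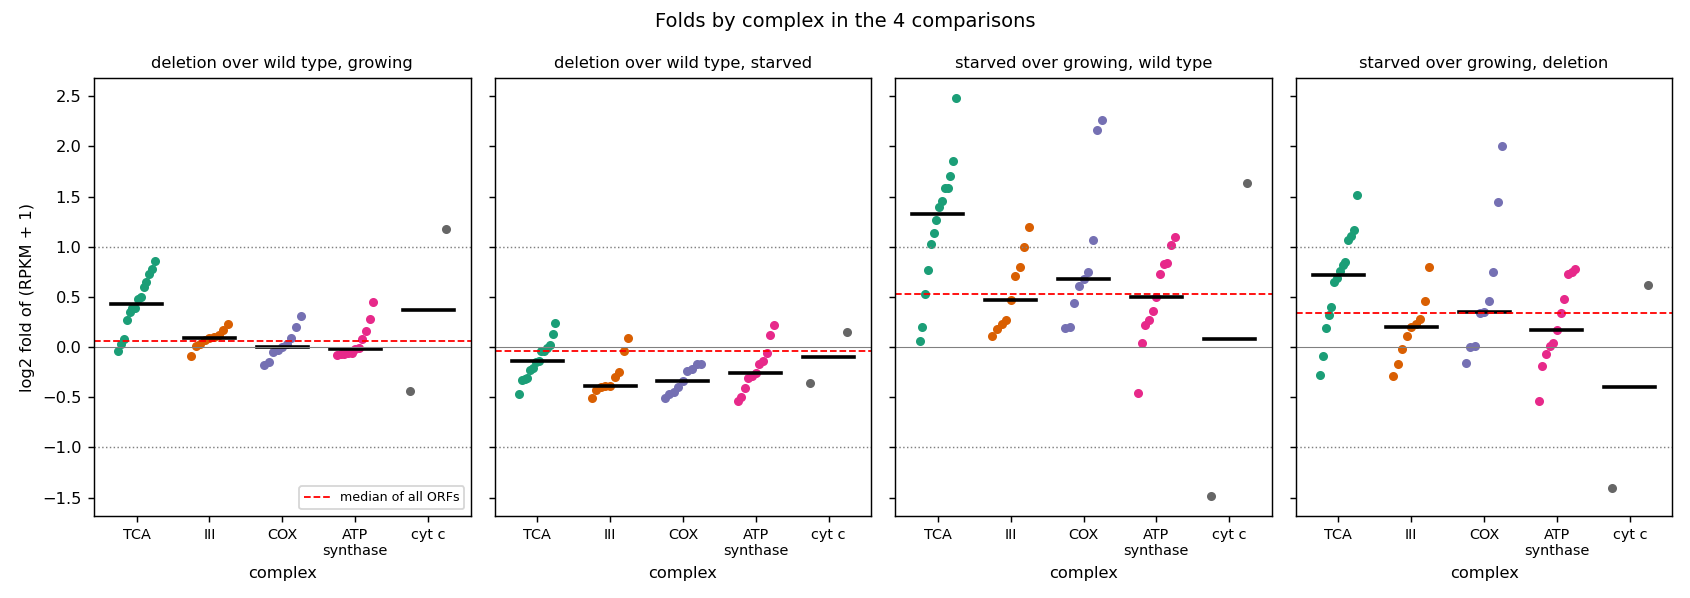
Log2 fold of (RPKM + 1) for each gene, grouped by complex, in the 4 comparisons; black bars are the medians of the complexes, the red dashed line is the median of all ORFs, and dotted lines mark 2-fold. In wild type the TCA median of 1.33 lies above the dashed line at 0.53, while those of complex III and the ATP synthase lie close to it.

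Within the cycle the size of the difference depended on the step. LSC2, the beta subunit of succinyl-CoA ligase (YGR244C, R64 assembly, chromosome VII, 978036 to 979319), was at 83.8 growing and 472 starved in wild type, and 132 and 378 in the deletion. Both starved values lay above both growing values, and the log2 fold in wild type, 2.48, was the highest of the 45. Its partner LSC1, the alpha subunit, was at 100.3 and 366 in wild type and 173 and 364 in the deletion, a log2 fold of 1.86 in wild type. The preceding step is the alpha-ketoglutarate dehydrogenase complex. KGD1, its first component, had the lowest level of the cycle in growing wild type, with an RPKM of 21.9, where it was at 62.0 once starved, and at 21.4 and 49.2 in the deletion. KGD2, the transsuccinylase component, was at 54.1 and 119.8 in wild type and 69.0 and 86.2 in the deletion. Both components were higher in the starved library of each genotype, KGD2 by little in the deletion. CIT1, the mitochondrial citrate synthase that opens the cycle, was at 44.3 and 147 in wild type and 58.2 and 127 in the deletion, a log2 fold of 1.71 in wild type.

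The 4 succinate dehydrogenase genes, SDH1 to SDH4, stood close together, with wild-type starvation log2 folds between 1.26 and 1.58. SDH2, the iron-sulfur subunit, was at 93.8 growing and 248 starved in wild type, and 171 and 225 in the deletion. Here the growing deletion lay well above growing wild type, and both starved libraries above it. SDH1, the flavoprotein subunit, was at 22.7 and 70.0 in wild type and 34.8 and 59.6 in the deletion. FUM1, fumarase, followed at a log2 fold of 1.03 in wild type. At the other end of the range stood the steps around isocitrate and malate. IDH2, a subunit of NAD-dependent isocitrate dehydrogenase and the highest TCA transcript in growing wild type, was at an RPKM of 248 and 285 in wild type and 351 and 288 in the deletion. Its highest value was that of the growing deletion, so its starvation fold was 0.20 in wild type and -0.28 in the deletion. IDH1, the other subunit, was at 136 and 198 in wild type and 189.8 and 217 in the deletion. MDH1, the mitochondrial malate dehydrogenase, was at 136 and 141 in wild type and 178 and 167 in the deletion, the smallest wild-type starvation fold of the cycle at 0.06. ACO1, aconitase, lay between these groups with a log2 fold of 0.77. With median-of-ratios scaling the wild-type folds of IDH2 and MDH1 lay below 0.

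**Figure D3:**
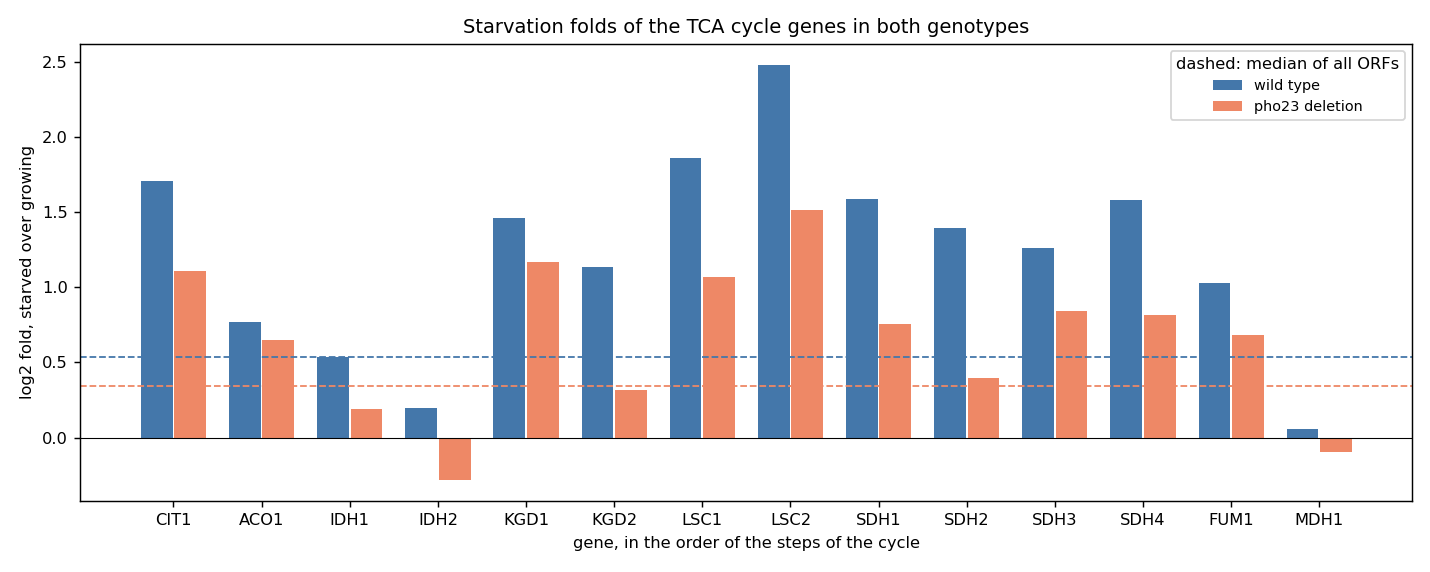
Log2 fold of starved over growing cells for the 14 TCA cycle genes, in the order of the steps, with wild type and the pho23 deletion side by side; dashed lines are the medians of all ORFs in each genotype. The bars from KGD1 to FUM1 and that of CIT1 stand above 1 in wild type, and every bar of the deletion is lower than that of wild type beside it.

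Complex III genes differed less between libraries than TCA genes did. QCR7, a small subunit and the highest of the complex, was at 445 growing and 725 starved in wild type, and 485 and 589 in the deletion. QCR10, another small subunit, had the highest wild-type starvation fold, 1.20, with values of 237 and 546 in wild type and 238 and 416 in the deletion. QCR9 had the lowest level of the complex in growing wild type. Its RPKM was 129.6 growing and 259.7 starved in wild type, and 132 and 182 in the deletion. The wild-type starvation fold of QCR9, 0.997, lay just under the 2-fold limit, and with a pseudocount of 0.1 it passed, at 1.002. Other subunits had smaller folds. COR1, a core subunit, was at 135 and 145 in wild type and 159 and 141 in the deletion, and CYT1, cytochrome c1, at 141 and 160.5 in wild type and 149 and 122 in the deletion. In both the starved deletion lay below the growing deletion. RIP1, the Rieske iron-sulfur protein, was at 223 and 310.0 in wild type and 240.1 and 237 in the deletion. QCR2, the other core subunit, and the small subunits QCR6 and QCR8 had wild-type starvation log2 folds of 0.80, 0.27 and 0.23. QCR6 was at 282 and 340.2 in wild type and 265 and 287 in the deletion, and QCR8 at 382 and 448 in wild type and 405 and 476 in the deletion. QCR9 and QCR10 are among the 3 genes with an intron, together with COX5B, and no source used here says whether the authors' ORF lengths include introns, so levels of these 3 relative to other genes are uncertain, while their folds do not depend on length.

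Among the oxidase genes, COX9 and COX5B stood apart. COX9, a small subunit encoded by 180 coding bases, was at 155 growing and 747 starved in wild type, and 192 and 524 in the deletion. Its wild-type starvation fold was 2.26 and its fold in the deletion 1.44. COX8 and COX7, also small subunits, showed almost none of this, with wild-type folds of 0.19 and 0.20. COX8 had the highest oxidase level in growing wild type, at 382, and was at 370.2, 435 and 373 in the other libraries. The remaining oxidase genes lay between, with wild-type starvation folds of 0.75 for COX6, 0.68 for COX12, 0.61 for COX13 and 0.44 for COX4. COX4 was at 132 and 180.2 in wild type and 153 and 136 in the deletion, so the starved deletion lay between the growing libraries. COX13 was at 325 and 497 in wild type and 286 and 394 in the deletion, lower in the deletion in both conditions.

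In the growing libraries the levels of the ATP synthase genes were the most even of the 4 complexes. ATP2, the catalytic beta subunit and the highest of the group in growing wild type, was the one member with a negative starvation fold in wild type. Its RPKM was 512 growing and 372 starved in wild type, and 492 and 339 in the deletion, folds of -0.46 and -0.54, so that both starved libraries were lower than both growing ones. ATP1, the alpha subunit that alternates with it in the catalytic head, was at 183 and 235 in wild type and 176 and 177 in the deletion. ATP15, the epsilon subunit of the central stalk, had the highest starvation fold, 1.09, with values of 458 and 979 in wild type and 483 and 801 in the deletion. ATP5, the oligomycin-sensitivity subunit of the peripheral stalk, was lowest in growing wild type and was at 178 and 359.9 in wild type and 169 and 290.4 in the deletion, a wild-type fold of 1.01. Both stalk genes were higher in each starved library than in either growing one. ATP3, the gamma subunit, was at 215 and 305 in wild type and 204 and 210.3 in the deletion. ATP14, of the peripheral stalk, was at 297 and 305 in wild type and 405 and 356 in the deletion, higher in the deletion in both conditions. The others had wild-type starvation folds of 0.84 for ATP20, 0.83 for ATP7, 0.73 for ATP17, 0.27 for ATP4 and 0.22 for ATP16. ATP20 was at 241 and 433 in wild type and 229 and 385 in the deletion.

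In both isoform pairs the alternative member held a larger part of the pair in starved cells. CYC1 and CYC7 encode the 2 forms of cytochrome c, of which the first predominates in aerobic cells and the second is better known from low oxygen and stress. CYC1 (YJR048W, chromosome X, 526335 to 526664) was at 820.2 growing and 293 starved in wild type, and 607 and 229 in the deletion. It was the highest of the 45 genes in both growing libraries, and the only one of them 2-fold lower after starvation, at -1.48 in wild type and -1.40 in the deletion. CYC7 (YEL039C, chromosome V, 79636 to 79977) went the other way, at 77.2 and 242 in wild type and 176 and 269 in the deletion. The ratio of CYC1 to CYC7 was 10.6 growing and 1.21 starved in wild type, and 3.45 and 0.851 in the deletion. This ratio lies within a library and does not depend on scaling. The summed RPKM of the pair was 897 growing and 535 starved in wild type, and 782 and 499 in the deletion.

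COX5A and COX5B encode alternative forms of oxidase subunit 5, the first of which is the main form with oxygen and the second the hypoxic one. COX5A was at 308 growing and 645 starved in wild type, and 277 and 466 in the deletion. COX5B was at 115 in both growing libraries, and at 520.1 and 463 in the starved ones. Both forms were higher after starvation, COX5B by more, with wild-type folds of 2.17 against 1.06. The ratio of COX5A to COX5B was 2.67 growing and 1.24 starved in wild type, and 2.40 and 1.01 in the deletion. Unlike CYC7, COX5B did not separate the growing genotypes.

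**Figure D4:**
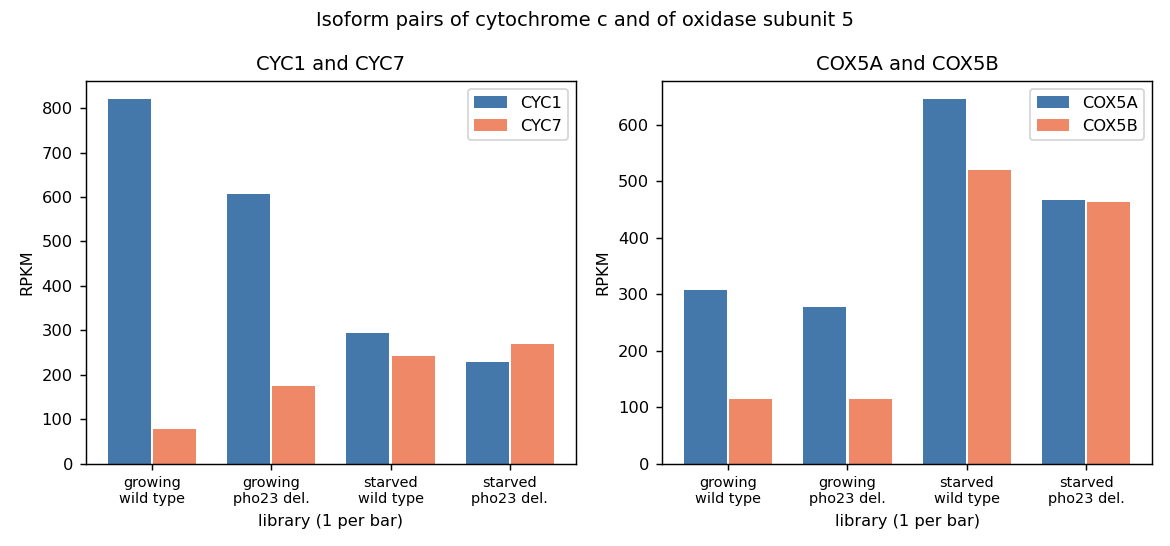
RPKM of CYC1 and CYC7 (left) and of COX5A and COX5B (right) in the 4 libraries, 1 bar for each gene and library. CYC1 goes from 820.2 to 293 in wild type while CYC7 goes from 77.2 to 242, and COX5B goes from 115 to 520.1.

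These pairs are similar in sequence, which matters for how reads are told apart. The coding sequences of CYC1 and CYC7 were identical at 78.1% of 329 aligned bases, with a longest shared run of 35 bases, and those of COX5A and COX5B at 69.3% of 446, with a longest run of 11. The most similar 90 bases of each pair are printed on the coding strand, with differing bases in capitals. They start at coding base 214 in CYC1, 226 in CYC7, 370 in COX5A and 364 in COX5B.
CYC1: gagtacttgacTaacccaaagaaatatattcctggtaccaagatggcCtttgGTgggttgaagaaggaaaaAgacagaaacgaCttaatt
CYC7: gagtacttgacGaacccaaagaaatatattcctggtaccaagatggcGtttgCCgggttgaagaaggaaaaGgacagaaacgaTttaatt
COX5A: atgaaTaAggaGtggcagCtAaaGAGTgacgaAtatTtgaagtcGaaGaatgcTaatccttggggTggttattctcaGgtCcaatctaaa
COX5B: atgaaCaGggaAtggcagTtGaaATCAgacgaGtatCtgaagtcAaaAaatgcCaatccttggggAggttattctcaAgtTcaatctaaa
No source used here gives the read length or says how reads that match both genes were handled, so the level of CYC7 in particular, where CYC1 is far more abundant, carries that uncertainty.

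Among growing cells, TCA cycle transcripts stood higher in the deletion than in wild type, while the other complexes were level. Of the 14 TCA genes 13 had a log2 fold above 0, where 58.3% of all ORFs did, and the median was 0.43 against 0.07. The median of the group stayed between 0.34 and 0.44 under the scalings and pseudocounts tried. No TCA gene reached 2-fold, but 5 reached 1.5-fold, where 12.3% of all ORFs did and 4.73% were lower by that much. These were SDH2 at 0.86, LSC1 at 0.78, SDH4 at 0.72, LSC2 at 0.65 and SDH1 at 0.60. With median-of-ratios scaling LSC2 at 0.56 and SDH1 at 0.51 were under that limit, and with upper-quartile scaling or a pseudocount of 5 SDH1 was, at 0.54 and 0.52. KGD1 at -0.04, FUM1 at 0.03 and ACO1 at 0.08 were level. Complex III, the COX genes and the ATP synthase had medians of 0.09, 0.00 and -0.02, with no gene at 1.5-fold in either direction, and scaling turned the first 2 of these to -0.01 and -0.09. Among them ATP14 at 0.45 and COX9 at 0.31 were highest, and COX13 at -0.18 lowest. CYC7 was the one gene of the 45 to reach 2-fold, at 1.17, where 3.95% of all ORFs were 2-fold higher and 2.08% lower. CYC1 was the lowest of the 45, at -0.43.

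In starved cells the deletion library held slightly less of most of these transcripts. Of the 45 genes, 38 had a log2 fold below 0 and 7 above it, where 45% of all ORFs were above, and 34 lay at or below the median of all ORFs, which was -0.04. No gene reached 1.5-fold in either direction, where 10.9% of all ORFs were higher and 10.9% lower by that much and 5.3% and 4.13% by 2-fold, and with libraries scaled to equal sums 7 genes passed on the lower side. All 9 COX genes were below 0, from -0.51 for COX9 to -0.17 for COX5B, with a median of -0.33. Complex III had a median of -0.39, with QCR9 lowest at -0.51 and QCR8 above 0 at 0.09. The ATP synthase had a median of -0.26, from -0.53 for ATP3 to 0.22 for ATP14. The TCA genes were nearest to the background, at -0.14, with KGD2 lowest at -0.47 and MDH1 highest at 0.24. These medians kept their sign under all 3 scalings.

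The starvation fold was lower in the deletion for nearly every gene as deposited. The comparisons of starved with growing cells in wild type and in the deletion share no library. In the deletion 6 of the 45 genes were 2-fold higher and 1 lower, where 22.4% and 8.77% of all ORFs were. The 6 were COX5B, LSC2, COX9, KGD1, CIT1 and LSC1, all of which were also 2-fold higher in wild type. The lower gene was again CYC1. With median-of-ratios scaling the split was 3 and 1, where 838 of 5824 ORFs were 2-fold higher and 925 lower. At 1.5-fold it went from 17 and 1, where 37.7% and 17.4% of all ORFs were, to 6 and 4 with that scaling. A fold above 0 was held by 34 of 45, where 64.8% of all ORFs had one. The TCA median was 0.72, the COX median 0.35, complex III 0.20 and the ATP synthase 0.17, against 0.34 for all ORFs, and with median-of-ratios scaling complex III and the ATP synthase turned to -0.14 and -0.16. Taking the deletion fold minus the wild-type fold, 43 of 45 genes were below 0, where 63.9% of all ORFs were. The median difference was -0.35 for the 45 genes and -0.15 for all ORFs, and median-of-ratios scaling left 34 below 0. All 14 TCA genes were below 0, with a median of -0.54, led by SDH2 at -0.99 and LSC2 at -0.97. CYC7 at -1.02 was the one gene past 2-fold, where 5.45% of all ORFs were lower and 5.27% higher, and CYC1 at 0.08 and QCR8 at 0.00 were the exceptions. For SDH2 the growing deletion was at 171 and growing wild type at 93.8, while the starved levels, 225 and 248, lay close together. The same values underlie the genotype folds given for growing and starved cells, so this is another view of them and not a further result.

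**Figure D5:**
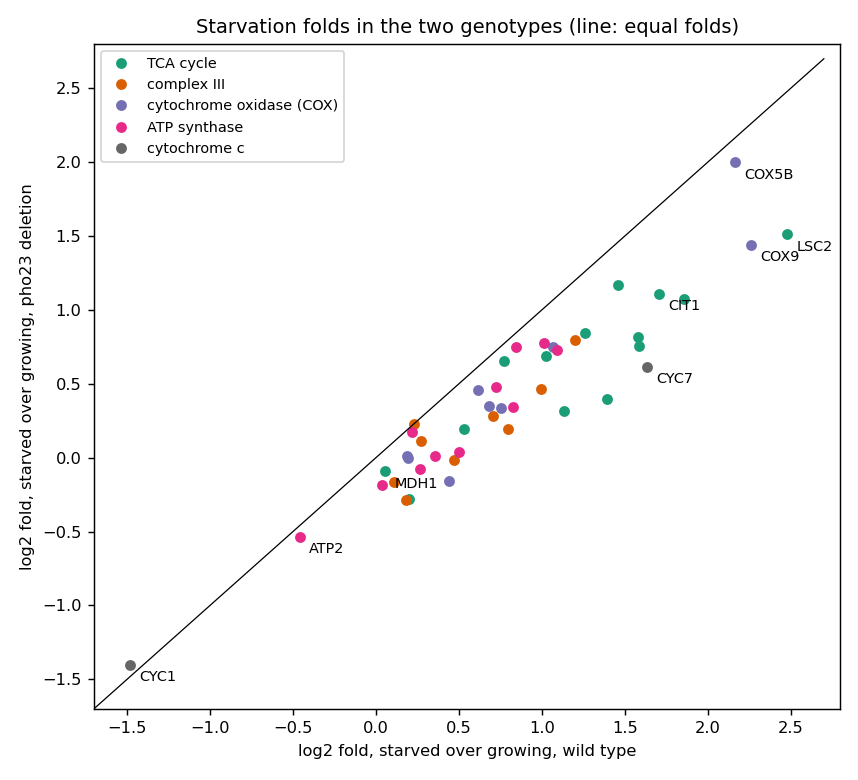
Log2 fold of starved over growing cells in wild type (x axis) against that in the pho23 deletion (y axis) for the 45 genes, coloured by complex, with a line of equal folds. All but CYC1 and QCR8 lie below the line, CYC7, LSC2 and SDH2 by about 1 log2 unit.

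The promoters of these complexes also differed. Promoters were read from the R64 reference (RefSeq), from 250 bases before to 50 after each start codon, and 5961 promoters of ORFs in the table served as background. On either strand, CCAAT was present in 34 of 45 promoters, or 75.6%, against 43.3% of all promoters. It was found in 10 of 11 ATP synthase, 8 of 9 COX, 7 of 9 complex III and 9 of 14 TCA promoters, and in neither cytochrome c promoter. A longer form, TNATTGGT, which contains CCAAT on its other strand, was present in 6 ATP synthase, 5 COX and 2 complex III promoters and in no TCA promoter, against 5.72% of all promoters. Of these 13 matches, 12 read TNATTGGT on the strand opposite the gene. The 12 with 11 bases available on each side are printed to show the shared core, in capitals, on the strand that reads it.
QCR7: cgcgtcgctccTGATTGGTcaaaacaagat
COX5B: ttaaattgaaaTAATTGGTctattgtttaa
COX6: gaaaagggaccTAATTGGTccggtcaaagc
COX8: cttctctcgtaTGATTGGTgcaaaccgttt
COX12: tttctgaaaatTGATTGGTcaatgttatga
COX13: agtaccgcctcTCATTGGTgggaaaaaaaa
ATP3: ttactcgccgcTCATTGGTtctccatcacg
ATP4: aaaaagcgtcgTGATTGGTtcaatattgat
ATP7: gcagcaagtggTAATTGGTgtatcttttac
ATP14: tttatgatgcaTAATTGGTtcgtgtatggc
ATP15: aggatcaaattTCATTGGTtcgtataaaag
ATP17: atccttcgataTGATTGGTtctctccgtaa
In the ATP synthase genes the matches lay from -230 to -134, counted from the start codon, and in the COX genes from -217 to -73.

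The TCA genes with no CCAAT in this window were CIT1, KGD1, KGD2, LSC1 and LSC2, and these include the 3 highest wild-type starvation folds of the cycle. Their folds ran from 1.13 to 2.48 with a median of 1.71, and those of the 9 TCA genes with the sequence from 0.06 to 1.58 with a median of 1.03. This split was looked at with the folds known and is a description, and no match says only that these letters are not in this window. In the other complexes the order was the reverse, with a median of 0.70 for the 25 genes with CCAAT and 0.27 for the 4 without. AGGGG, the core of the stress response element, was found in 19 of 45 promoters, or 42.2%, against 21.7% of all. GATAAG, bound by GATA factors of nitrogen regulation, was found in 13.3% against 14.7%, and GCCGCC, the core of the URS1 element bound by Ume6, in 4 promoters (SDH1, SDH2, COX5A and ATP20), or 8.89% against 5.15%. For the contrast described above, the bases from -250 to -101 before the start codon are printed for LSC2, with the highest starvation fold, and for the COX5A and COX5B pair, with CCAAT on either strand in capitals. They lie at chrVII:979420-979569 on the minus strand for LSC2, at chrXIV:531475-531624 on the plus strand for COX5A and at chrIX:154972-155121 on the plus strand for COX5B.
LSC2: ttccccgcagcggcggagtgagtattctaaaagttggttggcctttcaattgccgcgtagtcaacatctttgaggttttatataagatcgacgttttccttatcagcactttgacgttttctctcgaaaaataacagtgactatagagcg
COX5A: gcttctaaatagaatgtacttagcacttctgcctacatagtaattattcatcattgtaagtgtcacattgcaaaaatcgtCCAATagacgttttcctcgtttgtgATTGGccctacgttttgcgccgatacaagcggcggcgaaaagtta
COX5B: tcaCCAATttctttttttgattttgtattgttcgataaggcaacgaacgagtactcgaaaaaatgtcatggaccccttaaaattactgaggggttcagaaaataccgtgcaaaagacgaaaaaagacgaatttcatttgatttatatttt

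Other genes of the pathway are given as counts over whole lists, and the genes named from them are mostly those with the largest folds. For wild-type starvation these counts stand against 32.7% of all ORFs 2-fold higher and 13.3% lower, with a median of 0.53, and for the deletion against 22.4% and 8.77%, with a median of 0.34. Among 15 regulators, 4 were 2-fold higher in starved wild type and none lower, a share near that of all ORFs. RTG3, a retrograde activator of early TCA genes, was at 28.8 growing and 116 starved in wild type, and 33.2 and 90.03 in the deletion. MIG1, a glucose repressor, was at 38.4 and 112 in wild type and 41.3 and 92.9 in the deletion. HAP4, the activation subunit of the Hap complex, was at 61.9 and 42.5 in wild type and 62.3 and 42.4 in the deletion, lower in both starved libraries and level between genotypes. HAP5, a DNA-binding subunit of the same complex, was at 17.8 and 40.5 in wild type and 37.0 and 48.3 in the deletion. Of 13 regulators at the RPKM minimum, it was the 1 at 2-fold in the growing deletion, at 1.01. Of all ORFs, 3.95% were 2-fold higher there. Median-of-ratios scaling, which moved the median of all ORFs by -0.09 in that comparison, takes HAP5 under the limit.

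The side enzymes of the cycle had a median wild-type starvation fold of 1.38, close to the 1.33 of the cycle. Of 14 TCA side enzymes and isozymes, 12 were 2-fold higher after starvation in wild type and 7 in the deletion, none lower, where 32.7% and 22.4% of all ORFs were higher. SHH4, an alternative membrane subunit related to SDH4, was at an RPKM of 6.25 and 133 in wild type and 14.4 and 107 in the deletion. PYC1, pyruvate carboxylase, which refills the cycle, was at 25.8 and 170.1 in wild type and 25.6 and 173 in the deletion. IDP2, the cytosolic NADP-dependent isocitrate dehydrogenase, was at 3.48 and 43.4 in wild type and 7.98 and 21.0 in the deletion, the one side enzyme 2-fold lower in the starved deletion. Of 6 other dehydrogenases feeding the chain, 4 were 2-fold higher in starved wild type, against 32.7% of all ORFs. NDE2, an external NADH dehydrogenase, was at 0.88 and 44.6 in wild type and 1.33 and 19.3 in the deletion, and GUT2, the mitochondrial glycerol-3-phosphate dehydrogenase, at 9.02 and 108 in wild type and 12.96 and 88.8 in the deletion. In the 5-gene pyruvate dehydrogenase list, 2 were 2-fold higher in starved wild type and none in the starved deletion, where 32.7% and 22.4% of all ORFs were. LPD1, 1 of these 2, is also counted among the side enzymes above, so the lists share a gene.

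The factors that build the complexes stood lower after starvation more often than higher. Of 39 assembly factors, 5 were 2-fold higher and 9 lower in starved wild type, with a median of -0.67, and 4 and 13 in the deletion, with a median of -0.73. Of all ORFs, 32.7% were higher and 13.3% lower in wild type, with a median of 0.53, and 22.4% and 8.77% in the deletion, with a median of 0.34. OXA1, the inner membrane insertase, was at an RPKM of 107 and 27.7 in wild type and 85.2 and 34.0 in the deletion, and CMC1, a copper-binding factor of oxidase assembly, at 186 and 55.2 in wild type and 146 and 52.5 in the deletion. Of the 5 that were higher in wild type, SDH6 and SDH8 act on succinate dehydrogenase, and the others were COX20, AEP3 and ATP22. The other succinate dehydrogenase factors differed from them, with wild-type folds of -0.997 for SDH7 and 0.21 for SDH5. SDH6 was at 11.6 and 92.4 in wild type and 59.5 and 141 in the deletion, and SDH8 was at 34.6 and 292 in wild type and 63.4 and 234 in the deletion. Of 38 assembly factors at the RPKM minimum, SDH6 was the 1 at 2-fold in the growing deletion, where 3.95% of all ORFs were 2-fold higher. Of 8 heme synthesis genes, 1 was 2-fold higher and 2 lower in starved wild type, with a median of -0.58, and 1 and 1 in the deletion. HEM12, of the middle of the pathway, was at 88.5 and 15.9 in wild type and 95.2 and 24.2 in the deletion. HEM14 went the other way, at 27.8 and 65.0 in wild type and 28.9 and 62.8 in the deletion. With equal-sum scaling, which raises wild-type folds by 0.31, these negative medians lie nearer to 0. Median-of-ratios scaling, which moves wild-type folds by -0.51, takes them further from it. Either shift applies to all ORFs, so the distance of these medians from that of all ORFs stays about the same. Of 9 ubiquinone synthesis genes, 2 were 2-fold higher after starvation in wild type, a share below the 32.7% of all ORFs. All 9 had a fold above 0 in the growing deletion as deposited, where 58.3% of all ORFs did.

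Small proteins that act on the ATP synthase and the membrane carriers were mixed. STF1, which belongs to the proteins that inhibit ATP hydrolysis by the enzyme, was at 76.6 growing and 512 starved in wild type, and 341 and 532 in the deletion. Its genotype fold in growing cells was 2.14 and in starved cells 0.06. The inhibitor INH1 itself was at 99.7 and 207 in wild type and 119 and 130.3 in the deletion. STF1 thus differed between the growing libraries more than INH1 did. STF2, of the same list, was at 63.7 and 326 in wild type and 95.8 and 389 in the deletion. The small subunits ATP18, ATP19 and TIM11 had wild-type starvation folds of -0.01, -0.26 and 0.45. Of the 3 ADP/ATP carriers, PET9, the main form, was at 558 and 402 in wild type and 595 and 430.1 in the deletion, while AAC1, a minor form, was at 8.66 and 107 in wild type and 8.64 and 90.4 in the deletion. POR1, the outer membrane porin, was at 366 and 1174 in wild type and 649.7 and 998 in the deletion.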

How the data were processed

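Per the labels, total RNA of 4 yeast libraries was sequenced, 1 for each group. Per the submitters' processing notes, CASAVA 1.8.2 and Bowtie2 2.1.0 were used with sacCer3, the same assembly as R64. The values are RPKM per ORF as deposited by the authors. No source used here names the counting tool, the annotation, the ORF lengths or whether strand was used, which makes ORFs that overlap or lie antisense uncertain. Of the 45 genes 0 overlapped another RefSeq gene.

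Folds are log2((RPKM + 1)/(RPKM + 1)) without further scaling, computed for all 6678 ORFs. Counts at 2-fold or 1.5-fold include ORFs that reached an RPKM of 10 in either library compared. With 1 library per group no test was run, and p-values are not given. Background shares use the same rules over all ORFs. The share inside the range of mean RPKM was added after the data were seen. Symbols and coding lengths came from RefSeq R64, which holds 5997 of the ORFs and all 45 genes. Read numbers were estimated from the step among low values of RPKM times coding length. Of these values 38.9% to 53.3% lay no more than 0.1 from whole reads (20.0% by chance), so the estimate is rough and covers counting error only. Summed RPKM ran from 883544 to 1101484. Motifs were searched on both strands, and coding sequences were aligned with Biopython 1.88. The procedure was tested on simulated data with counting error only and equal numbers of planted higher and lower genes. That test cannot speak to the spread between cultures or to changes mostly in 1 direction, as after starvation.

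The 45 genes, the 10 pathway lists and the limits were chosen with earlier results of these data known. Values in all libraries are given for the isoform pairs and for the genes with the highest and lowest level and fold of each complex. From other lists, up to 4 genes with the largest folds were eligible. HAP4, PET9, INH1, ATP18, ATP19, TIM11, SDH5, SDH7, AEP3 and ATP22, and members given in all libraries beside that rule, were named after their values were seen. Other settings tried were pseudocounts of 0.1 and 5, dropping the filter or setting it to an RPKM of 30, and scaling libraries to equal sums, by median of ratios or to the upper quartile.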

Additional observations from a re-analysis of the deposited data

Results flagged for a closer look

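The genotype folds of the TCA cycle had opposite signs in the 2 conditions. Their median log2 fold (deletion over wild type) was 0.43 with growth in YPD and -0.14 after starvation, and the difference between them was not tested, since each value rests on 2 libraries. Of single genes, 6 had folds of opposite sign that both exceeded 0.2 in size. CIT1 was at 0.39 growing and -0.21 starved, and KGD2 at 0.35 and -0.47. LSC2 was at 0.65 and -0.32, and SDH1 at 0.60 and -0.23. COX4 was at 0.20 and -0.40, and COX9 at 0.31 and -0.51. The size limit was set after the data were seen, and no difference was tested. Scaling to equal sums or by median of ratios moves all starved genotype folds by -0.14 or 0.10, so that the smaller of these values depend on it.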

How the results depend on the processing

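Scaling moved the counts more than the pseudocount or the filter did. For growing genotypes, 6 genes were 1.5-fold higher as deposited, 4 with median of ratios and 5 with upper quartile or a pseudocount of 5. For wild-type starvation, 17 genes were 2-fold higher as deposited, 26 with equal sums, 8 with median of ratios and 10 with upper quartile. Of all ORFs, 32.7%, 44.5%, 19.1% and 24.7% were 2-fold higher, in the same order. At 1.5-fold the 27 higher of the 45 became 13 with median of ratios, and the 1 lower became 2 with median of ratios and with upper quartile. The median of the 45 genes was 0.75, and 1.07, 0.22 and 0.46 in that order of scalings. In the deletion the 6 at 2-fold became 3 with median of ratios and 3 with upper quartile, and the 17 at 1.5-fold became 6 and 10, with 4 and 2 lower against 1. The share of all ORFs 2-fold higher there went from 22.4% to 14.4% and 17.5%. Shares of all ORFs at 1.5-fold were computed as deposited only. The median of the 45 genes in the deletion was 0.34, and 0.51, 0.00761 and 0.15. For starved genotypes it was -0.25, and -0.39 with equal sums, where 7 genes were 1.5-fold lower, and -0.14 with median of ratios. The difference of starvation folds had a median of -0.35, with -0.50 for equal sums and -0.15 for median of ratios. CYC7 was the 1 gene past 2-fold there, against 2 with a pseudocount of 0.1, 3 with equal sums and 0 with a pseudocount of 5, median of ratios or upper quartile. No called value turned its sign. The medians of complex III and the ATP synthase turned negative for starvation with median of ratios in both genotypes. Reading promoters without the 50 bases after the start left CCAAT in 73.3% of the 45 and 35.4% of all. No paired analysis was possible because each group has 1 library and the labels give no replicate numbers. Leaving out a library was not run for the same reason.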
